A study of Mus musculus with 9 samples.

Results

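Cytosolic ribosomal protein genes encode the protein part of the ribosome that translates nuclear mRNAs. Here they are the 80 genes, of 21950 in the expression table, whose symbols are Rpl or Rps with a number and at most 1 final letter a, l or x, or are Rpsa, Rplp0, Rplp1 or Rplp2. Pseudogenes and ribosomal protein kinases are not among them, and no measured value was used to choose them. They divide into 49 genes of the large subunit and 31 of the small subunit. The cells were MLE-12, a mouse lung epithelial line from lung tumours of mice carrying the SP-C/TAg transgene, in which a viral large T antigen is driven by the promoter of surfactant protein C. All samples came from this 1 line at passage 17. The cells of 1 group received extracellular vesicles, membrane-bound particles shed by cells, from lavage fluid of bleomycin-injured syndecan-1 deficient mice (deficient vesicles). The cells of another received such vesicles from bleomycin-injured wild-type mice (wild-type vesicles). The cells of the last group received regular culture medium (control). Bleomycin is used to produce lung fibrosis, and syndecan-1 is a cell-surface heparan sulfate proteoglycan. Both donor types were injured, so vesicles of uninjured mice form no group here. The labels give neither dose nor duration of treatment, and do not explain the D21 that vesicle columns carry. Each group has 3 libraries of polyadenylated RNA. Nothing in the labels says whether they came from separate cultures or vesicle donors, so p-values measure only the spread between these libraries, which may be technical.

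Each ribosome holds a single copy of nearly every ribosomal protein, and cells adjust the supply of these proteins largely through translation of their mRNAs. Most of these mRNAs begin with a run of pyrimidines, the terminal oligopyrimidine tract, through which mTORC1 and the RNA-binding protein LARP1 control their translation and stability. Transcription of the genes is promoted by MYC. When assembly fails, free Rpl5 and Rpl11 bind Mdm2 and p53 rises. Mammalian genomes hold many processed copies of these genes, and reads from such copies and from the parent genes can be hard to tell apart.

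Values are RPKM, read numbers relative to the length of a gene and the size of a library, as deposited. Library totals recovered from the RPKM steps lay between 24353257 and 33558660 reads, and tested ribosomal protein genes had between 775 and 75838 reads in a library. Differences were tested with limma on log2(RPKM + 1) over 11125 genes with a mean of at least 1 RPKM, and a gene is called at a Benjamini-Hochberg adjusted p under 0.05. Of the 80 genes 77 passed the filter. The other 3 are the tissue-restricted copies Rpl10l, listed at 0 in all 9 libraries, Rpl39l, at no more than 0.18 RPKM, and Rpl3l, at 0.22 to 0.49 RPKM. Of the epithelial markers Krt8 and Krt19 were present, at 153 to 173 and 178 to 204 RPKM with deficient vesicles, 174 to 187 and 169 to 212 RPKM with wild-type vesicles and 333 to 342 and 694 to 731 RPKM in control. Cdh1 was at 0.120 to 0.183 RPKM with deficient vesicles, 0.137 to 0.189 RPKM with wild-type vesicles and 1.34 to 1.40 RPKM in control, with a mean below the filter. Epcam was listed at 0 in all libraries, and Krt18 was at most 0.871 RPKM. The alveolar type 2 markers summed to 186 to 200 RPKM with deficient vesicles, 180 to 201 RPKM with wild-type vesicles and 80.7 to 81.8 RPKM in control. Fibroblast markers summed to 791 to 916 RPKM with deficient vesicles, 750 to 893 RPKM with wild-type vesicles and 272 to 281 RPKM in control, with Dcn and Pdgfra called higher and Col1a1 called lower with both vesicles, and Col1a2 and Col3a1 below the filter. Macrophage markers summed to 2.48 to 3.10 RPKM with deficient vesicles, 2.14 to 2.57 RPKM with wild-type vesicles and 2.82 to 2.97 RPKM in control, with Marco and Siglecf at 0 throughout. Neutrophil, lymphocyte and endothelial markers summed to at most 0.282 RPKM each in any library. Erythroid globin mRNAs summed to 1.74 to 13.2 RPKM with deficient vesicles, 0.153 to 0.406 RPKM with wild-type vesicles and 0.756 to 2.40 RPKM in control. The part of these other mRNAs in the results below was not tested.

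Sequences around the start site are shown for 5 genes that were among the largest decreases and for 3 genes that stood above all controls in wild-type replicates 1 and 2. Each line gives 30 bases before and 30 from the RefSeq start onward (GRCm38.p6, gene strand, 5′ to 3′). Capitals mark the longest run that begins with C and continues for at least 7 more bases, each C or T, starting from 20 bases before to 30 after the start. The 5 genes of the decreases come first.
Rps2 (chr17:24720033-24720092, plus strand): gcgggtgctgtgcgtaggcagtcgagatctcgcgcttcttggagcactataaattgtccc
Rps18 (chr17:33955636-33955695, minus strand): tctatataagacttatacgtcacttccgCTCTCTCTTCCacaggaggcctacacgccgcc
Rpl38 (chr11:114668550-114668609, plus strand): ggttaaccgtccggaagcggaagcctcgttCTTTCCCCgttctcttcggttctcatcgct
Rpl7a (chr2:26910777-26910836, plus strand): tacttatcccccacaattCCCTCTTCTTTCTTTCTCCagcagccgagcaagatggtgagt
Rpl4 (chr9:64173357-64173416, plus strand): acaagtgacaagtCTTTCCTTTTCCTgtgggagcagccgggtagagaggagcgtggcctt
Rps28 (chr17:33824533-33824592, minus strand): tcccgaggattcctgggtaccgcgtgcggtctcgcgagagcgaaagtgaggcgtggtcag
Rps4x (chrX:102189362-102189421, minus strand): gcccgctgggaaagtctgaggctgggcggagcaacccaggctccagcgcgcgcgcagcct
Rpl23 (chr11:97782410-97782469, minus strand): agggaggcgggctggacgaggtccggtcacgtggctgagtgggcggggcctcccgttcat
Rps18, Rpl38, Rpl7a and Rpl4 had such a run, and these letters were not in the windows of Rps2, Rps28, Rps4x and Rpl23. Among other large called decreases with a matched promoter, Rps12, Rps25 and Rps26 had a run, and Rpl12, Rpl27, Rpl41 and Rpsa had none. Rps27l had a run in only part of its windows. The lines shown are therefore examples, and a link between the run and the direction of change was not tested. RefSeq promoters were matched for 60 of the 80 genes. A run was present in 33 of their 72 promoters (45.8%), against 14.9% of all 32851 promoters, searched on the gene strand only. With the shorter form, a C at the start itself and 4 pyrimidines after it, the shares were 18.1% and 2.5%. These matches describe letters and were not read as sites.

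The family took up a smaller part of the transcriptome with either kind of vesicle. The 77 tested genes together held 9.27%, 8.27% and 8.87% of all RPKM with deficient vesicles, and 9.26%, 9.21% and 9.59% with wild-type vesicles. They held 12.7%, 12.4% and 12.9% in control. The vesicle groups overlapped each other in this share of RPKM, and neither overlapped control. By share of reads the 80 genes held 3.98%, 3.57% and 3.82% with deficient and 4.04%, 4.03% and 4.12% with wild-type vesicles. In control this share was 5.61%, 5.42% and 5.69%. By this measure the vesicle groups did not overlap each other either. RNAs encoded by the mitochondrial genome took the opposite course. They held 12.5% to 13.0% of all RPKM with deficient vesicles, 12.9% to 14.9% with wild-type vesicles and 8.22% to 8.64% in control. With library totals taken without these RNAs, the family's median log2 fold change against control was -0.515 with deficient and -0.485 with wild-type vesicles. As deposited these medians were -0.533 and -0.510. A link between the 2 courses was not tested. In these bulk samples less RNA per cell and fewer cells that make it cannot be told apart.

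**Figure D1:**
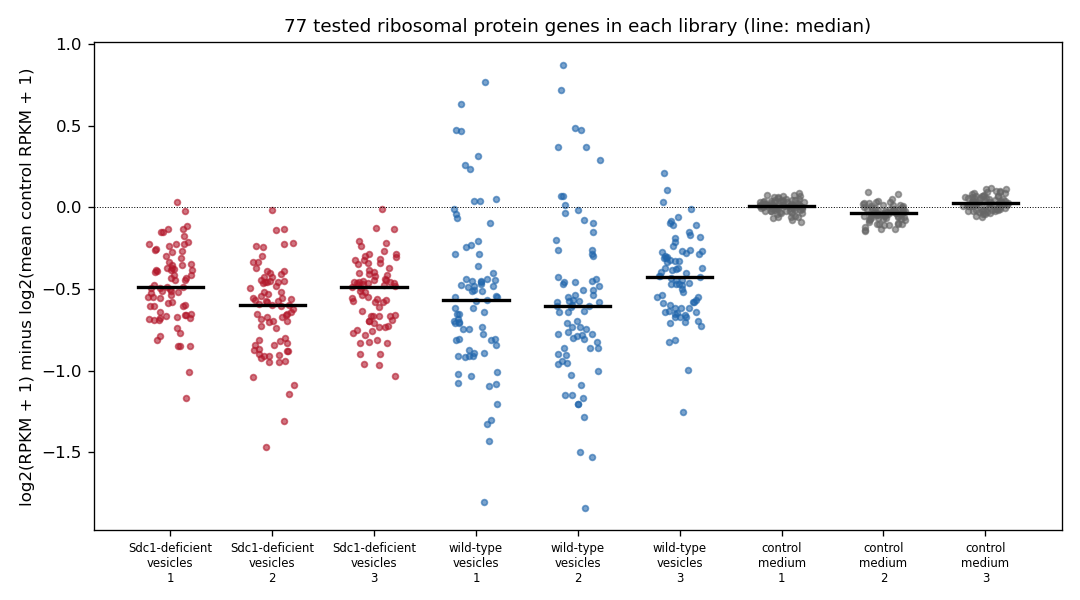
Each point is 1 of the 77 tested ribosomal protein genes in 1 library, as log2(RPKM + 1) minus the log2 of its mean control RPKM + 1, with deficient vesicles in red, wild-type vesicles in blue and control in grey; the line is the median. Medians were -0.49, -0.60 and -0.49 with deficient vesicles and -0.57, -0.60 and -0.43 with wild-type vesicles, and replicates 1 and 2 of the wild-type vesicles spread widest, up to 0.87 and down to -1.84.

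With deficient vesicles 70 of the 77 tested genes fell, none rose and 7 were not called, against 26.5% of all tested genes called lower and 48.8% called higher. No gene of the family was higher at an unadjusted p under 0.05 either, nor by voom on the recovered reads. The median log2 fold change was -0.53, against 0.13 over all tested genes. All 3 libraries lay below all controls for 75 genes, against 29.5% of all tested genes. In no gene did all 3 lie above all controls, against 51.4% of all tested genes. In either direction 81% of all tested genes did not overlap. By subunit, 45 of 46 tested large subunit genes fell, and 25 of 31 small subunit genes. The 7 genes not called were Rpl23, Rps15, Rps20, Rps21, Rps27, Rps27l and Rps28. With median-of-ratios scaling all of them except Rps20 (limma adjusted p = 0.18) were called lower.

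With wild-type vesicles 62 of the 77 genes fell, 2 rose and 13 were not called, against 30% of all tested genes called lower and 45% called higher. The median log2 fold change was -0.51, against 0.09 over all tested genes. All 3 libraries lay below all controls for 64 genes, against 31.3% of all tested genes, and above them for 1 gene, Rps28, against 46.9%. In either direction 65 genes did not overlap, against 78.2% of all tested genes. The large subunit had 39 decreases and no increase among its 46 genes, and the small subunit 23 decreases and 2 increases among 31. The SD of the log2 fold changes over the 77 genes was 0.22 with deficient and 0.39 with wild-type vesicles. Both comparisons use the same 3 control libraries.

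**Figure D2:**
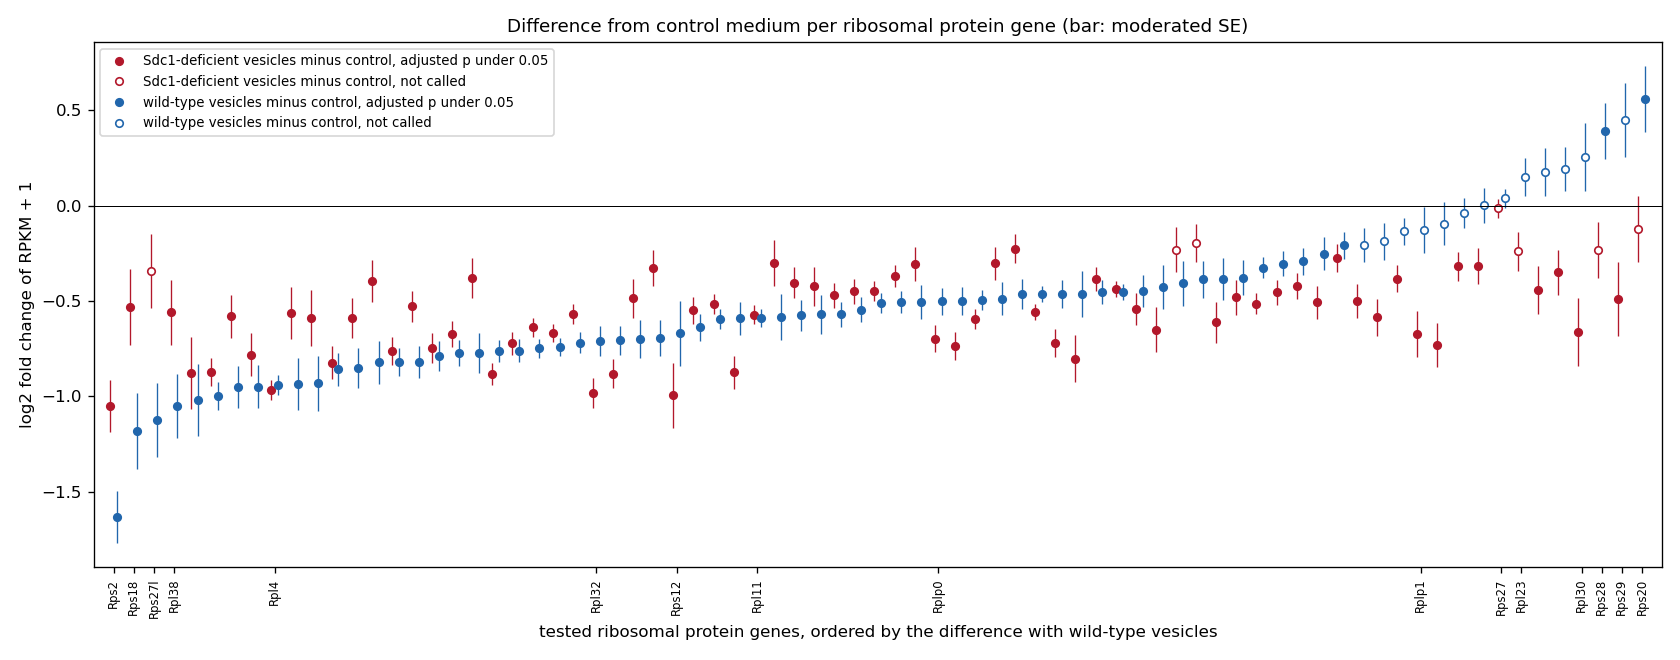
Log2 fold change of RPKM + 1 against control for each of the 77 tested genes, deficient vesicles in red and wild-type vesicles in blue, with moderated standard errors; filled points have an adjusted p under 0.05, and 16 genes are labelled on the axis. With deficient vesicles the values ran from -1.05 to -0.01, and with wild-type vesicles from -1.63 for Rps2 to 0.56 for Rps20.

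Small subunit genes included the largest decreases. Rps2, a protein at the mRNA entry channel (chr17:24718116-24721929, plus strand, GRCm38), stood at 448, 523 and 492 RPKM with deficient vesicles, at 288, 280 and 422 RPKM with wild-type vesicles and at 981, 1044 and 998 RPKM in control. No vesicle library reached a control library. The log2 fold change was -1.05 ± 0.14 (SE) with deficient vesicles (limma adjusted p = 4.75e-05) and -1.63 ± 0.14 with wild-type vesicles (limma adjusted p = 1.73e-06). Rps18, a protein of the subunit's head (chr17:33951999-33956001, minus strand), stood at 224, 210 and 236 RPKM with deficient vesicles, 119, 112 and 216 RPKM with wild-type vesicles and 307, 343 and 322 RPKM in control. Wild-type replicate 3 lay within the range of the deficient vesicle libraries, and the other 2 lay below all 7 remaining libraries. Rps12, a head protein known in Drosophila for a role in cell competition, was the highest of the family in control. It stood at 1520, 884 and 1378 RPKM with deficient vesicles, 1505, 1477 and 1641 RPKM with wild-type vesicles and 2449, 2292 and 2613 RPKM in control. Its log2 fold change was -0.99 ± 0.17 with deficient vesicles (limma adjusted p = 0.000356) and -0.67 ± 0.17 with wild-type vesicles (limma adjusted p = 0.00466). Replicate 2 of the deficient vesicles was far below the other 2. The call with wild-type vesicles was lost without wild-type replicates 1 and 2 together (-0.58, limma adjusted p = 0.0629). Rps26, which contacts mRNA where it leaves the ribosome, averaged 494 ± 47.5 RPKM with deficient vesicles, 555 ± 21.6 RPKM with wild-type vesicles and 907 ± 17.3 RPKM in control (SD, n = 3), and fell with both. Rps25, needed by viral internal ribosome entry sites, averaged 278 ± 29.9 RPKM with deficient vesicles, 216 ± 36.0 RPKM with wild-type vesicles and 415 ± 15.2 RPKM in control, and fell with both. Rpsa, the laminin receptor precursor, averaged 460 ± 8.01 RPKM with deficient vesicles, 563 ± 73.1 RPKM with wild-type vesicles and 845 ± 24.5 RPKM in control, with log2 fold changes of -0.87 and -0.59. Rps6, the target of S6 kinase, fell to 481 ± 27.4 RPKM with deficient vesicles and 425 ± 53.7 RPKM with wild-type vesicles, against 594 ± 14.3 RPKM in control.

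Rps27 and Rps27l are a pair of paralogues. Rps27, a zinc finger protein, did not pass the test in any comparison, at 177, 178 and 179 RPKM with deficient vesicles, 186, 175 and 193 RPKM with wild-type vesicles and 186, 173 and 180 RPKM in control. Its log2 fold change was -0.01 ± 0.05 with deficient vesicles (limma adjusted p = 0.812) and 0.04 ± 0.05 with wild-type vesicles (limma adjusted p = 0.494). These are the values as deposited. With median-of-ratios scaling Rps27 was called lower with deficient vesicles (-0.17, limma adjusted p = 0.0102). Of the 50-base sequences of its mRNA 98.6% occur in other annotated genes. Rps27l, its p53-inducible paralogue and the tested gene of the family with the lowest control mean, stood at 81.2, 90.7 and 80.6 RPKM with deficient vesicles, 42.0, 37.2 and 72.9 RPKM with wild-type vesicles and 103, 114 and 104 RPKM in control. It fell with wild-type vesicles (log2 fold change -1.12 ± 0.19, limma adjusted p = 0.00037). With deficient vesicles all 3 libraries were below all controls, and the difference was not called (-0.34 ± 0.19, limma adjusted p = 0.133).

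Over the large subunit genes the SD of the log2 fold changes was 0.19 with deficient and 0.33 with wild-type vesicles, against 0.25 and 0.48 over the small subunit genes. Rpl4, which lines the exit tunnel for the growing protein (chr9:64173375-64178666, plus strand), stood at 383, 408 and 395 RPKM with deficient vesicles, 410, 412 and 386 RPKM with wild-type vesicles and 785, 777 and 757 RPKM in control. The libraries of the 2 vesicle groups overlapped, and the log2 difference between these groups was -0.03 ± 0.05 (limma adjusted p = 0.747). Rpl32 fell to 393 ± 40.6 RPKM with deficient vesicles and 473 ± 4.77 RPKM with wild-type vesicles, against 775 ± 49.6 RPKM in control. Rpl27 fell to 204 ± 9.63 and 222 ± 8.14 RPKM with deficient and wild-type vesicles, against 377 ± 15.2 RPKM in control. Rpl12, at the base of the stalk, fell to 246 ± 11.1 and 226 ± 24.3 RPKM with deficient and wild-type vesicles, against 451 ± 4.43 RPKM in control. Rpl38, needed in mouse embryos for translation of Hox mRNAs, stood at 336, 284 and 341 RPKM with deficient vesicles, 191, 193 and 317 RPKM with wild-type vesicles and 442, 483 and 489 RPKM in control. As for Rps18, wild-type replicates 1 and 2 were lowest and replicate 3 was near the deficient vesicle libraries. Rpl41, with the shortest coding sequence of the family (75 bases), fell to 544 ± 132 and 491 ± 116 RPKM with deficient and wild-type vesicles, against 980 ± 37.1 RPKM in control. Rpl7a fell by 0.78 and 0.95 on the log2 scale with deficient and wild-type vesicles.

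Of the Mdm2-binding pair, Rpl5 fell to 239 ± 6.06 RPKM with deficient vesicles and 218 ± 17.1 RPKM with wild-type vesicles, against 309 ± 2.97 RPKM in control. Rpl11 fell to 158 ± 5.83 and 156 ± 6.76 RPKM with deficient and wild-type vesicles, against 235 ± 4.06 RPKM in control. Both changes were called in both comparisons, and neither gene was called between the vesicle groups. Rpl10, which joins the subunit late in its maturation, fell by 0.51 and 0.33 on the log2 scale with deficient and wild-type vesicles. Rpl3, at the catalytic centre, and Rpl39, in the exit tunnel, fell by 0.52 and 0.49 with deficient vesicles and by 0.60 and 0.70 with wild-type vesicles, while their copies Rpl3l and Rpl39l stayed below the filter.

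The stalk proteins recruit the elongation factors. Rplp0 stood at 882, 853 and 895 RPKM with deficient vesicles, 1038, 1049 and 927 RPKM with wild-type vesicles and 1431, 1380 and 1455 RPKM in control, and fell with both. Rplp2 fell to 289 ± 24.0 and 309 ± 26.8 RPKM with deficient and wild-type vesicles, against 421 ± 30.4 RPKM in control. Rplp1 stood at 1296, 995 and 1049 RPKM with deficient vesicles, 1689, 1750 and 1425 RPKM with wild-type vesicles and 1738, 1646 and 1920 RPKM in control. It fell with deficient vesicles (log2 fold change -0.67 ± 0.12, limma adjusted p = 0.000443). With wild-type vesicles its libraries overlapped control (-0.13 ± 0.12, limma adjusted p = 0.348).

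Among the 6 highest genes in control were Rps12 at 2451 ± 161 RPKM, Rplp1 at 1768 ± 139, Rplp0 at 1422 ± 37.9, Rpl8 at 1190 ± 37.8 and Rpl19 at 1107 ± 13.3 RPKM (SD, n = 3). These 5 genes fell with deficient vesicles, and 4 of them, without Rplp1, fell with wild-type vesicles. Rpl8 averaged 710 ± 39.7 and 690 ± 66.0 RPKM with deficient and wild-type vesicles, and Rpl19 736 ± 38.6 and 619 ± 107 RPKM. The order of levels depends on the gene length in use. The lengths recovered from the RPKM steps were 404 to 6139 bases, while coding lengths are 75 to 1257 bases. Per kilobase of coding length the highest in control were Rpl41, Rps29, Rps12, Rpl12, Rps28 and Rpl21, in that order. Across the 77 genes the rank correlation of mean levels was 0.967 between deficient vesicles and control, 0.911 between wild-type vesicles and control and 0.944 between deficient and wild-type vesicles. The points of each pair share their genes, gene lengths and sequence.

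**Figure D3:**
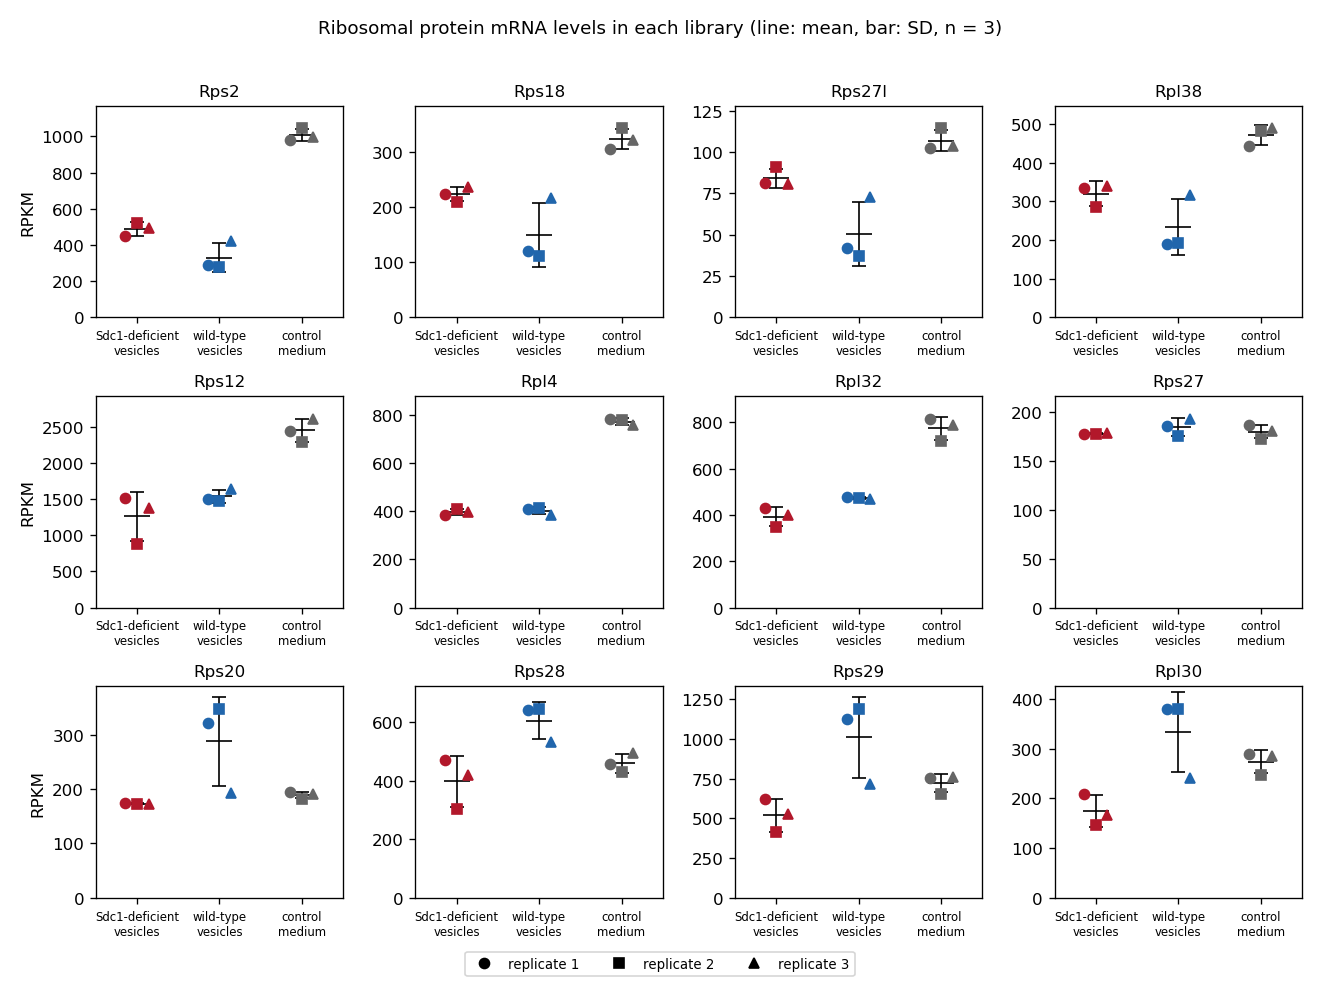
RPKM in each of the 9 libraries for 12 ribosomal protein genes, deficient vesicles in red, wild-type vesicles in blue and control in grey, with mean and SD (n = 3) and a symbol for each replicate. In the top row wild-type replicates 1 and 2 lie lowest, in the middle row they lie with replicate 3, and in the bottom row they lie above all controls, as for Rps20 at 322 and 347 RPKM.

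A small set of genes went against the family with wild-type vesicles. Rps20, a head protein (chr4:3831334-3835665, minus strand), stood at 174, 173 and 173 RPKM with deficient vesicles, at 322, 347 and 194 RPKM with wild-type vesicles and at 194, 183 and 191 RPKM in control. Wild-type replicates 1 and 2 were high, and replicate 3 was level with the highest control. The call with wild-type vesicles (log2 fold change 0.56 ± 0.17, limma adjusted p = 0.0129) was lost without wild-type replicate 1 (0.45, limma adjusted p = 0.0527), and without replicates 1 and 2 together the value was 0.03. Only 7.44% of the 50-base sequences of its mRNA occur in other annotated genes. Rps28, near Rps26 at the mRNA exit (chr17:33819027-33824562, minus strand), stood at 471, 303 and 419 RPKM with deficient vesicles, 640, 644 and 531 RPKM with wild-type vesicles and 458, 428 and 494 RPKM in control. All 3 wild-type libraries were above all controls, and the rise was 0.39 ± 0.15 on the log2 scale (limma adjusted p = 0.0313). This call was lost without control replicate 1 or 2 or wild-type replicate 1 or 2, with values of 0.34 to 0.39. It was also lost with no filter on low values (limma adjusted p = 0.0713) and with median-of-ratios scaling (0.28, limma adjusted p = 0.116).

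Rps29, a zinc-binding head protein (chr12:69157722-69159186, minus strand), stood at 621, 415 and 528 RPKM with deficient vesicles, 1124, 1189 and 718 RPKM with wild-type vesicles and 756, 657 and 760 RPKM in control. Rpl30, which in yeast controls splicing of its own transcript (chr15:34440505-34443640, minus strand), stood at 210, 146 and 167 RPKM with deficient vesicles, 379, 380 and 241 RPKM with wild-type vesicles and 289, 248 and 285 RPKM in control. For both genes wild-type replicates 1 and 2 were above all controls and replicate 3 was not. Both fell with deficient vesicles (log2 fold changes -0.49 ± 0.19 and -0.66 ± 0.18, limma adjusted p = 0.0389 and 0.00628) and were not called with wild-type vesicles (0.45 ± 0.19 and 0.25 ± 0.18, limma adjusted p = 0.0547 and 0.217). For Rps4x and Rpl23 replicates 1 and 2 were also above all controls, and replicate 3 was below all of them. In all, 7 genes had wild-type replicates 1 and 2 above all controls. Of these 7 genes wild-type replicate 3 was above all controls for Rps28 alone, and no deficient vesicle library was above all controls for any of the 77 genes. These 7 genes were singled out after their values were seen, and the same count was not made over all tested genes.

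Between the vesicle groups 8 genes were higher and 18 lower with deficient vesicles, against 12.9% and 5.43% of all tested genes. The median log2 difference was 0.04, the same as over all tested genes. Groups did not overlap for 35 genes, against 32.3% of all tested genes. The 8 genes that were higher with deficient vesicles had all fallen with wild-type vesicles against control. They were Rps27l (log2 difference 0.78), Rps18 (0.65), Rps2 (0.59), Rps7 (0.43), Rpl13a (0.39), Rps25 (0.37), Rps19 (0.37) and Rpl22 (0.29), with limma adjusted p between 0.0291 and 0.0481. Rps19 is the gene most often mutated in human Diamond-Blackfan anaemia, and Rpl22 is needed for T cell development in mice. Among the 8 largest of the lower genes were Rps29 (-0.94), Rpl30 (-0.92), Rps20 (-0.68), Rpl36 (-0.64), Rps28 (-0.62), Rplp1 (-0.55) and Rps4x (-0.54), with limma adjusted p between 0.0255 and 0.0323. Of the 18 lower genes 12 were not called with wild-type vesicles against control, 4 had fallen and 2 had risen. The same wild-type libraries enter both comparisons, so genes chosen by the difference between the vesicle groups are not independent of the change against control. In addition, 62 of all 77 tested genes fell with wild-type vesicles. The directions against control of the higher and lower genes were therefore not read as a separate result.

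These calls between the vesicle groups depended on which libraries were fitted, while all 26 genes kept their direction without any 1 library. Without any 1 of wild-type replicate 1 or 2 or deficient replicate 2 or 3 limma called none of the 77 genes, with 29 to 36 of them at an unadjusted p under 0.05. Without deficient replicate 2 the log2 difference was -0.68 for Rps20, 0.69 for Rps18, 0.73 for Rps27l and 0.53 for Rps2, with limma adjusted p of 0.105, 0.119, 0.109 and 0.104. Without control replicate 1, 2 or 3 limma called 8 to 10, and without deficient replicate 1 it called 26. Without wild-type replicate 3 it called 54, of which 33 were higher and 21 lower with deficient vesicles. Shares of all tested genes called under these fits are not given here, so the counts were not read as particular to the family. Without wild-type replicates 1 and 2 together it called none, and 16 were at an unadjusted p under 0.05. Wild-type replicate 3 is then alone in its group and is assumed to vary like the other groups.

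Within the wild-type group, replicates 1 and 2 were close to each other and replicate 3 stood apart. The median absolute log2 difference over the 77 genes was 0.04 between replicates 1 and 2, and 0.24 between replicate 3 and their mean. Replicate 3 was 0.11 from the mean of the deficient vesicle libraries by the same measure. It was nearer to that mean than to replicates 1 and 2 for 54 genes. Against replicates 1 and 2 it was higher than both for 51 genes, most for Rps18 (0.90), Rps27l (0.87) and Rpl38 (0.72). It was lower than both for 21, most for Rps20 (-0.78), Rps29 (-0.69) and Rpl30 (-0.65). The signed median was 0.10 for 37 genes with a coding length under 450 bases and 0.20 for 40 longer ones. For the other tested genes these medians were 0.06 and 0.03. The counts and absolute differences were not taken over all tested genes, so whether they are particular to the family was not tested.

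Within the deficient vesicle group, replicate 2 was the lowest library for 57 of the 77 genes, a count not made over all tested genes. Replicate 2 was below the mean of replicates 1 and 3 by most for Rps12 (log2 difference -0.71), Rpl41 (-0.64) and Rps28 (-0.55), and above it by most for Rps7 (0.26) and Rps25 (0.23). The difference went with coding length, with a Pearson r of 0.43 on log2 length and a Spearman rho of 0.31 over the 77 genes, which share their 3 libraries. It also went with the mean control level, with a Pearson r of -0.34 on the log2 level and a Spearman rho of -0.36. Length and level were not separated. The median was -0.19 for 37 genes with a coding length under 450 bases and -0.06 for 40 longer ones. Over the other tested genes it was -0.02 for 788 short and 0.02 for 10072 longer ones. For wild-type replicate 3 against replicates 1 and 2 the r with log2 coding length was -0.01.

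**Figure D4:**
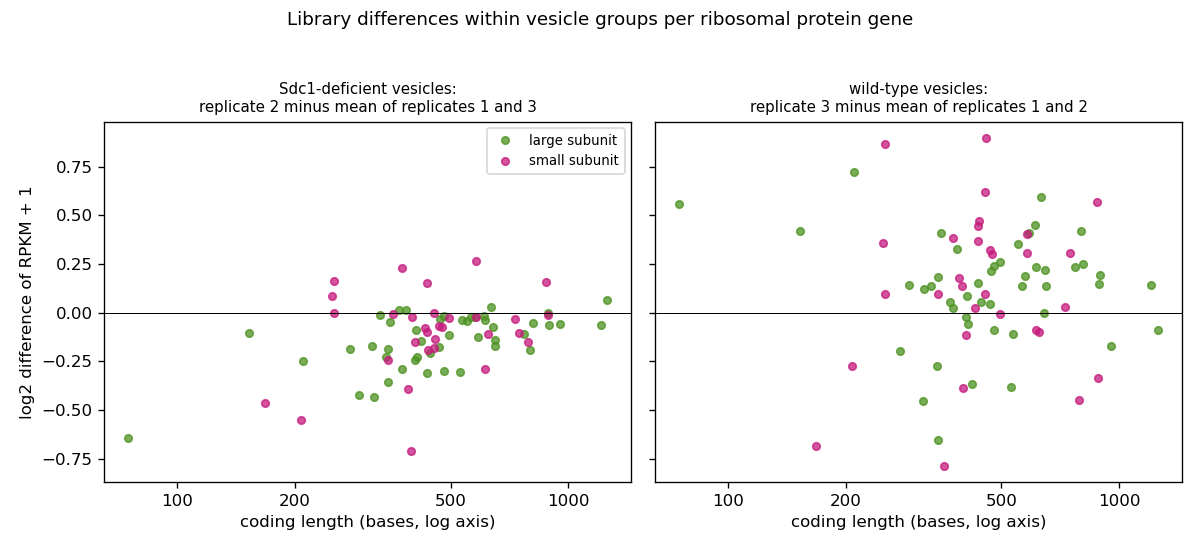
Log2 difference of replicate 2 from the mean of replicates 1 and 3 of the deficient vesicles (left) and of replicate 3 from the mean of replicates 1 and 2 of the wild-type vesicles (right), against coding length on a log axis, 1 point per tested gene with the large subunit in green and the small subunit in magenta. On the left values run from -0.71 for Rps12 to 0.26, with Rpl41, the shortest, at -0.64 (r = 0.43), while on the right values run from -0.78 to 0.90 with no slope along length (r = -0.01).

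The reads of these genes are shared with near-identical copies to a varying degree. Of the 50-base sequences of the tested mRNAs a median of 55.4% occur in another annotated gene, with 98.6% for Rps27 as the highest share, and 76 of the 77 share some with an annotated pseudogene. Among the listed genes 23 copies of 20 of these genes had values of their own. With deficient vesicles 17 copies were called lower and none higher, and with wild-type vesicles 19 lower and none higher, against 26.5% and 30% of all tested genes called lower and 48.8% and 45% called higher. The share of a gene in the summed RPKM of gene and copies showed wild-type replicates 1 and 2 outside all 7 other libraries for 16 of the 20 genes, above them for 11 and below them for 5. These 2 libraries were chosen for this comparison after their values were seen.

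Rps18 held 27.9%, 32.6% and 32.9% of the sum with its 2 copies with deficient vesicles, 15.9%, 15.4% and 26.3% with wild-type vesicles and 28.1%, 31.9% and 27.9% in control. The sum itself was 806, 644 and 719 RPKM with deficient vesicles, 754, 727 and 821 RPKM with wild-type vesicles and 1090, 1076 and 1156 RPKM in control. On the summed values Rps18 fell with both kinds of vesicle (log2 fold changes -0.62 and -0.53), and the log2 difference between deficient and wild-type vesicles was -0.09 (limma adjusted p = 0.481), against 0.65 for Rps18 alone. Rpl15 held 45.3%, 47.5% and 47.6% of its sum with deficient vesicles, 33.2%, 33.7% and 43.0% with wild-type vesicles and 45.4%, 46.4% and 46.3% in control. Its difference between the vesicle groups was 0.10 alone and was not called, and on the summed values it was -0.26 and was called (limma adjusted p = 0.0269). For Rpl10 the difference of -0.19 became 0.0016 on the summed values. Rps2 kept its difference, with 0.59 alone and 0.55 summed. The counts of the family against control were hardly touched by summing, with 70 lower with deficient vesicles and 62 lower and 2 higher with wild-type vesicles. Summing could change only the 20 genes whose copies had values, so it does not measure shared reads of the rest.

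**Figure D5:**
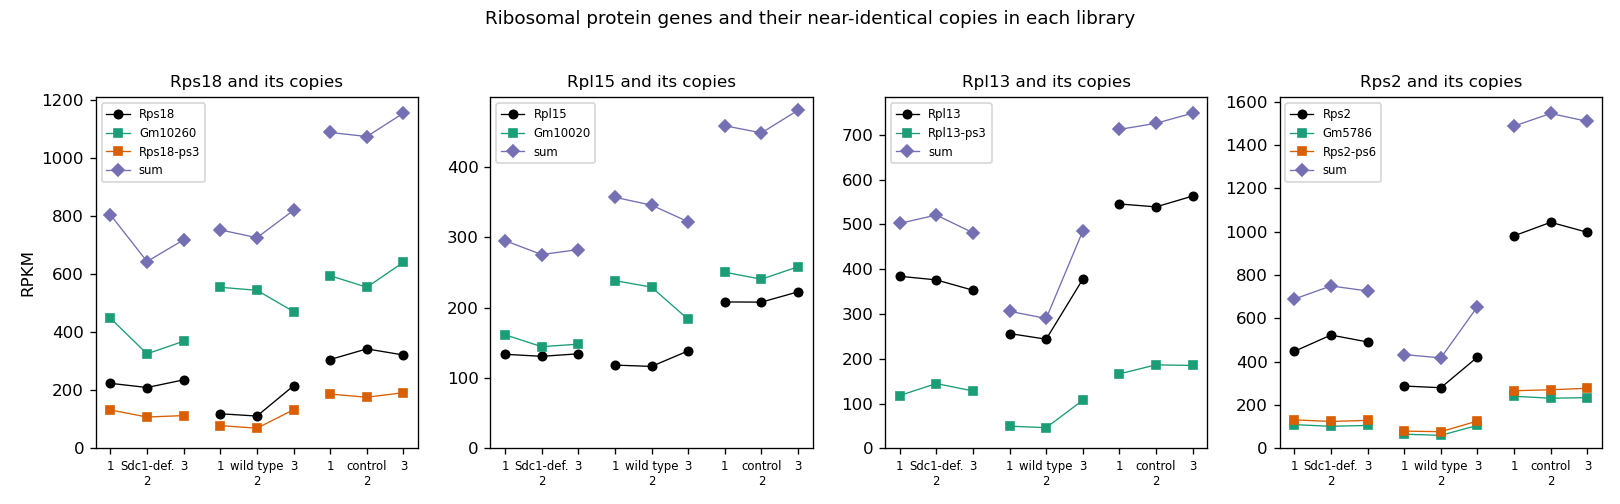
RPKM in each library of Rps18, Rpl15, Rpl13 and Rps2 (black), of their near-identical copies (green and orange) and of the sum (purple), with deficient vesicles, wild-type vesicles and control from left to right. In wild-type replicates 1 and 2 Rps18 lies at 119 and 112 RPKM while the sum stays at 754 and 727 RPKM, whereas for Rps2 gene, copies and sum are low together.

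Genes of the same system that lie outside the naming rule behaved in part like the family. Of 7 further tested ribosomal protein genes given here 5 fell with deficient and 6 with wild-type vesicles. Of all tested genes 26.5% and 30% were called lower with deficient and wild-type vesicles. Fau, a small subunit protein made as a fusion with a ubiquitin-like protein, fell with wild-type vesicles (log2 fold change -0.52, limma adjusted p = 0.0037) and was not called with deficient vesicles (-0.04, limma adjusted p = 0.764). Gnb2l1, the scaffold protein RACK1, fell with both (-0.68 and -0.67 with deficient and wild-type vesicles). Rpl7l1, Rpl36al and Rpl22l1 also fell with both, Rps3a1 with deficient vesicles (-0.41), and Rps27rt, a copy of Rps27, with wild-type vesicles (-0.93).

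Other mRNAs known to start with an oligopyrimidine tract are those of translation factors and related proteins. Of 18 such mRNAs 17 fell with deficient vesicles and 14 with wild-type vesicles, and none rose, against 26.5% and 30% of all tested genes called lower and 48.8% and 45% called higher. The median log2 fold changes were -0.65 and -0.45 with deficient and wild-type vesicles, against 0.13 and 0.09 over all tested genes. Npm1, a nucleolar chaperone, fell by 1.35 and 1.20 with deficient and wild-type vesicles, and Pabpc1, the poly(A) binding protein, by 1.13 and 0.89. Eef1g and Eef1d, subunits of an elongation factor, also fell with both. A list of 16 tested factors held escorts of ribosomal proteins, assembly and other nucleolar factors, and genes for transcription by RNA polymerase I. Of these 15 fell and 1 rose with deficient vesicles, and 14 fell and 1 rose with wild-type vesicles. The shares of all tested genes are those just given. The rise was in Tsr2, the escort of Rps26, by 0.34 and 0.33 with deficient and wild-type vesicles. Ncl and Nop56, proteins of the nucleolus, Heatr3, an escort of Rpl5, and Polr1a and Polr1b, the large subunits of RNA polymerase I, fell with both.

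Of 17 tested regulators of ribosomal protein mRNAs 6 rose and 5 fell with deficient vesicles, and 7 rose and 6 fell with wild-type vesicles. Of all tested genes 48.8% were called higher and 26.5% lower with deficient vesicles, and 45% higher and 30% lower with wild-type vesicles, so these counts are near the background. Myc averaged 9.68 ± 0.332 RPKM with deficient vesicles, 12.8 ± 1.49 RPKM with wild-type vesicles and 19.1 ± 0.328 RPKM in control (SD, n = 3), a fall of 0.91 and 0.55 on the log2 scale with deficient and wild-type vesicles. Larp1 fell by 0.48 and 0.46, Eif4ebp2, Rps6kb1 and Cnbp also fell with both, and Larp4 fell with wild-type vesicles. Tsc1 and Tsc2, which hold mTORC1 in check, rose by 0.55 and 0.54 with deficient vesicles and by 0.55 and 0.59 with wild-type vesicles. Other genes of this list rose as well, Rheb by 0.18 and 0.37 and Rps6kb2 by 0.18 and 0.23 with deficient and wild-type vesicles. Mtor itself rose with wild-type vesicles (0.18) and was not called with deficient vesicles (0.07), and Rptor was called with neither. Sp1, a general transcription factor, rose by 0.58 and 0.38 with deficient and wild-type vesicles. Of 6 genes on the p53 side Cdkn1a, Mdm4, Bbc3 and Ccng1 rose with both, against 48.8% and 45% of all tested genes called higher with deficient and wild-type vesicles. The rise of Cdkn1a was 0.79 and 0.64 with deficient and wild-type vesicles. Mdm2 and Trp53 were not called in either comparison.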

How the data were processed

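RNA was measured in MLE-12 cells in 3 groups of 3 libraries. Per the labels' protocols, Trizol was used for extraction and a stranded TruSeq kit for polyadenylated RNA. TopHat2 2.0.7 and the builds GRCm38 and mm10 appear in the submitters' processing notes. The read counter, its annotation and its use of strand are not given in the sources used here. The authors deposited RPKM per gene, per the file headers. Headers of the vesicle columns show the donor type. Those of the controls show just the cell line, so these columns were assigned by elimination.

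Whole reads, library totals and gene lengths were recovered from the RPKM steps for all 11125 tested genes, within 0.01 of a whole number. SDs are over 3 libraries. Genes with a mean of at least 1 RPKM entered a limma fit (version 3.58.1, R 4.3.3) on log2(RPKM + 1) with 3 groups and a variance trend. Benjamini-Hochberg adjustment was made over all tested genes in each of 3 comparisons. Because of the added 1, fold changes are on the log2(RPKM + 1) scale. On data of 11125 genes simulated for the comparison of wild-type vesicles with control, 92% of genes changed by 0.5 and 98% of those changed by 1 (log2) were recovered. There were 11 false calls among the genes left unchanged. The simulation changed few genes and gave each library independent spread, while 75.1% of genes were called in the data. Its rates therefore need not hold for the data, and the comparison of the 2 vesicle groups was not simulated.

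Coordinates and coding lengths come from GENCODE M21 (GRCm38), matched by identifier for 21748 of 21950 genes. A copy is a gene with at least 50% of its own 50-base sequences in 1 ribosomal protein gene. Sums of RPKM add genes of different lengths. Promoters are from RefSeq.

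Ribosomal protein genes, lists and alternatives were chosen with earlier results of these data known. Named genes are the 8 largest called changes in each direction, calls against the majority, the 6 highest control levels, genes below the filter and a fixed set of paralogues, stalk and regulatory proteins. Alternatives changed the pseudocount, filter, scaling, trend, groups fitted, replicate block and libraries; voom, summing with copies and leaving out 3 libraries together were added after seeing the data. Genes hosting small nucleolar RNAs and nuclear long noncoding RNAs were listed too and are not analysed here. No columns of values were left unused. Some genes that the naming rule selects are not reported here.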

Additional observations from a re-analysis of the deposited data

Results flagged for a closer look

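The limma test of the difference between the 2 vesicle groups gave an adjusted p under 0.05 for the ribosomal protein genes given here. Of these Fau, Rps27rt and Rpl22l1 lie outside the naming rule. None of the 77 tested genes stayed called without wild-type replicate 1 or 2 or deficient replicate 2 or 3, each left out alone. Nor was any of them called with only the 2 vesicle groups fitted. An effect of the donor type itself is thus not established. The log2 difference of deficient minus wild-type vesicles was negative for Rps29 (-0.94), Rpl30 (-0.92), Rps20 (-0.68), Rpl36 (-0.64), Rps28 (-0.62), Rplp1 (-0.55) and Rps4x (-0.54). It was also negative, with smaller size, for Rps24 (-0.40), Rpl23 (-0.39), Rpl21 (-0.32), Rpl37a (-0.28), Rpl32 (-0.27), Rps13 (-0.26), Rpl27a (-0.24) and Rpl10 (-0.19). It was positive for Rps27rt (1.06), Rps27l (0.78), Rps18 (0.65), Rps2 (0.59), Fau (0.47), Rps7 (0.43), Rpl13a (0.39), Rps25 (0.37), Rps19 (0.37), Rpl22 (0.29) and Rpl22l1 (0.29).

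Among the 77 tested genes wild-type replicates 1 and 2 were above all deficient vesicle libraries for 29 genes and below all of them for 37. The same count was not made over all tested genes, so whether it is particular to the family was not tested. For Rps18 and Rpl10 the difference did not remain on values summed with their copies (-0.089 and 0.0016). The other called genes with copies, Rps2 (0.55), Rps7 (0.43), Rplp1 (-0.51) and Rps28 (-0.62), were still called on the summed values (limma adjusted p of 0.0332, 0.0324, 0.0270 and 0.0290). Rps28 itself held 99.1% to 99.9% and Rplp1 94.1% to 98.3% of the sum over the libraries, so summing could change these genes little. Copies without values of their own are not analysed here.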

How the results depend on the processing

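The decreases against control kept their direction under every alternative run, with 65 to 76 genes lower with deficient vesicles (70 reported), with none higher, and 55 to 65 lower with wild-type vesicles (62 reported). Without 1 library these counts were 65 to 75 and 60 to 63. The median with deficient vesicles was -0.57 to -0.49 without 1 library and -0.69 with median-of-ratios scaling. With wild-type vesicles it was -0.57 to -0.49 without 1 library, -0.62 with that scaling and -0.43 without wild-type replicates 1 and 2, also with deficient replicate 2 left out too. That scaling put the median of all genes at -0.0028 with deficient vesicles, against 0.13 as deposited. The genes higher with wild-type vesicles (2 reported) were 0 to 7 without 1 library, 1 with no filter or with that scaling and 0 without wild-type replicates 1 and 2, with or without deficient replicate 2.

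Between deficient and wild-type vesicles the 8 higher genes became 0 to 33 without 1 library, 5 with median-of-ratios scaling, and 0 with no filter, with only the 2 groups fitted, and without wild-type replicates 1 and 2 (with or without deficient replicate 2). The 18 lower genes became 0 to 21 without 1 library and 0 under the last 4 of these settings. At an unadjusted p under 0.05 those settings gave 36, 32, 16 and 13 genes in either direction, and voom on recovered reads called 12 higher and 23 lower. The median of 0.04 was 0.0018 to 0.0823 without 1 library and reversed to -0.011 with that scaling, -0.0888 without wild-type replicates 1 and 2, and -0.0584 with deficient replicate 2 left out as well. Of single genes, Rps18 reversed to -0.089 and Rpl10 to 0.0016 when summed with copies. The cause of the other changes was not tested. Shares of all tested genes called under the alternatives are not given here, for this comparison or for those against control.

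Same-numbered libraries deviated from their group means with correlations of -0.20 to 0.29, so the numbers were not taken as pairs. With a replicate block 71 genes were lower with deficient vesicles, 62 lower and 2 higher with wild-type vesicles, and 8 higher and 17 lower between them. With 3 libraries per group and single libraries that stand apart, differences between the vesicle groups have little precision. Summing with copies changed some single genes and hardly the family counts, but it reached only the 20 genes whose copies had values.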
